A study of Homo sapiens with 17 samples.

Results

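The genes for glutamate receptors and GABA-A receptors were described in human neurons without UTX and in wild-type neurons. UTX, whose gene symbol is KDM6A, is an enzyme that takes methyl groups off histone H3 lysine 27. Members were all gene symbols of the deposited count table that name a subunit of an AMPA (GRIA), kainate (GRIK), NMDA (GRIN) or delta (GRID) receptor, a metabotropic glutamate receptor (GRM) or a GABA-A receptor subunit (GABR). There were 45 members among 60199 symbols, 26 for glutamate receptors and 19 for GABA-A receptors. The choice went by gene symbol alone, though earlier results of these data were known. A filter on low counts was passed by 41 members, and GABRA6, GABRP, GABRR3 and GRM6 did not pass it.

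All neurons came from H9, an established human embryonic stem cell line, at passage 40. They were differentiated through embryoid bodies and neural progenitors and collected on day 40. The UTX-/- neurons came from lines named KO1 (3 RNA libraries) and KO2 (2 RNA libraries), and the wild-type (WT) neurons from unedited H9 (3 RNA libraries). The labels do not say whether a KO line is 1 clone, or whether the replicates were differentiated separately. The p-values therefore rest on the spread among libraries, which may be technical. Chromatin was assayed by ChIP-seq for H3K27me3 and H3K36me3 in each line, but the deposited peaks form 1 list per mark for KO and 1 for WT.

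Glutamate is the main excitatory transmitter of the brain, and GABA the main inhibitory transmitter. AMPA, kainate and NMDA receptors are tetrameric cation channels, metabotropic glutamate receptors act through G proteins, and GABA-A receptors are pentameric chloride channels. H3K27me3 is deposited by the Polycomb complex PRC2 and is known from silenced or lowly expressed developmental genes, often at promoters rich in CG dinucleotides. H3K36me3 lies along the bodies of transcribed genes.

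The promoters of 5 members are shown because they span the range of the marks and RNA changes described below. GRIK3, GRIN2D and GRM7 were the only members whose RNA passed the adjusted threshold in the authors' deposited table, and all 3 had H3K27me3 promoter peaks in the KO and the WT list. GABRE and GABRR2 had no such peak in either list. Each sequence runs 5′ to 3′ from 250 bases before to 50 bases after the most upstream RefSeq start site, in GRCh38.p14, with CG dinucleotides in capitals. GRIK3 lies at chr1:37034466-37034765 (minus strand), GRIN2D at chr19:48393418-48393717 (plus strand), GRM7 at chr3:6860865-6861164 (plus strand), GABRE at chrX:151974627-151974926 (minus strand) and GABRR2 at chr6:89315250-89315549 (minus strand).
GRIK3: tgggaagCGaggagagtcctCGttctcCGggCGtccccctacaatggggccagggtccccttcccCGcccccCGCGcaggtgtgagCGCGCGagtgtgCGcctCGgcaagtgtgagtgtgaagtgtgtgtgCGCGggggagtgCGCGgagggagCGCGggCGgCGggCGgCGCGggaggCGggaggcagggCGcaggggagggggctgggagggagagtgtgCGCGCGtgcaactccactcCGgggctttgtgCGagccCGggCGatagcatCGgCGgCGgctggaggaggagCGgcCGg
GRIN2D: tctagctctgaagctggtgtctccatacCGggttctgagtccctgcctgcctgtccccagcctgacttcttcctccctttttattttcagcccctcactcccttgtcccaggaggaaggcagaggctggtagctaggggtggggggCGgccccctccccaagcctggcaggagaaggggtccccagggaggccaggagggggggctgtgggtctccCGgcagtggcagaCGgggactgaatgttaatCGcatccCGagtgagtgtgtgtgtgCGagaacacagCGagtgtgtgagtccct
GRM7: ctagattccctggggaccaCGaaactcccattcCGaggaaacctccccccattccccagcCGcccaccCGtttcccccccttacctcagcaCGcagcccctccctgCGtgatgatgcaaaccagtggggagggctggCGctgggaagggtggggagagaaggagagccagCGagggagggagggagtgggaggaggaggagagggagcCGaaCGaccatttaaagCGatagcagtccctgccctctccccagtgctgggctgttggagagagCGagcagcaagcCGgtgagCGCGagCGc
GABRE: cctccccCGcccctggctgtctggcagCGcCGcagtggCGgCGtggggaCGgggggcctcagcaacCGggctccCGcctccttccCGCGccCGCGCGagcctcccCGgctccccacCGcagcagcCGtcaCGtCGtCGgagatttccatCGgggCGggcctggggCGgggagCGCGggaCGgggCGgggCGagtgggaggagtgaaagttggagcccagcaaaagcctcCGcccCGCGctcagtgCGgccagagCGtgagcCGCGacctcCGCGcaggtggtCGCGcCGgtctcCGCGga
GABRR2: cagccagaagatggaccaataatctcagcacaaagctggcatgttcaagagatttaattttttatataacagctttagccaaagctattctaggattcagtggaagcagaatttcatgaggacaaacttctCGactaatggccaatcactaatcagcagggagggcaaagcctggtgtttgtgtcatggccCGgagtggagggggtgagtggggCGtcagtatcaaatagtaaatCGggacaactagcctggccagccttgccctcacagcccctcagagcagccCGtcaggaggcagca
The GRIK3 stretch held 37 CG dinucleotides and lay within a peak in the KO and the WT list. The GRM7 stretch held 16, and its first bases were touched by a KO peak but by no WT peak. The GRIN2D stretch held 8 and was touched by no peak, since the GRIN2D peaks began further into the gene. The GABRE stretch held 41 and the GABRR2 stretch 5, and no peak of either list touched them.

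The libraries held 17374615 to 31527014 estimated counts. In the data, 3 KO libraries stood apart. Expression of COL1A1, a fibrillar collagen of connective tissue, was 27500 CPM (the library-size scaled count used throughout) in KO1 replicate 2, 9230 in KO2 replicate 1 and 14500 in KO2 replicate 2, against 7.65 to 387 CPM in the other 5 libraries. All 12 mesenchymal markers examined were detected, and their summed level was 25800 to 67000 CPM in those 3 libraries, 992 to 1230 in the other KO libraries and 112 to 1780 in WT libraries. The 14 neuron markers summed to 845 to 5290 CPM in KO libraries and 4010 to 6110 CPM in WT libraries, with the 3 high-collagen libraries at 845 to 3010. In bulk RNA, fewer neurons and less receptor RNA per neuron cannot be told apart. KDM6A itself stood at 25.9 to 40.8 CPM in KO libraries and 35.2 to 36 CPM in WT libraries; the labels do not give the deleted part, so the gene count does not check the genotype.

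With all libraries, edgeR's quasi-likelihood test called no gene at an FDR of 0.05 and therefore none of the 41 members tested in KO against WT. At an unadjusted p under 0.05 it gave 3 members (7.32%), below the 17.9% of all 18614 genes tested. DESeq2 called 3 members of 40 (7.50%), near its background of 5.99% of 20745 genes. These were 1 higher in KO neurons (2.50%, with 4.83% of all genes) and 2 lower (5.0%, with 1.16%). The authors' deposited table differed from this fit by less than 0.001 in log2 fold change, and the same 3 members passed in it, out of 43 with a p-value (6.98%, with 3.52% of all genes). GRIN2A and GRIN2C had no p-value there or in the DESeq2 fit, so their lack of a call is not a test result. The median log2 fold change of the 41 members was -0.28 against -0.01 for all genes, with 23 members below 0. Without the 3 high-collagen libraries, which leaves KO1 replicates 1 and 3 and no KO2 library, the median was 0.16, with 14 of 41 members below 0.

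**Figure D1:**
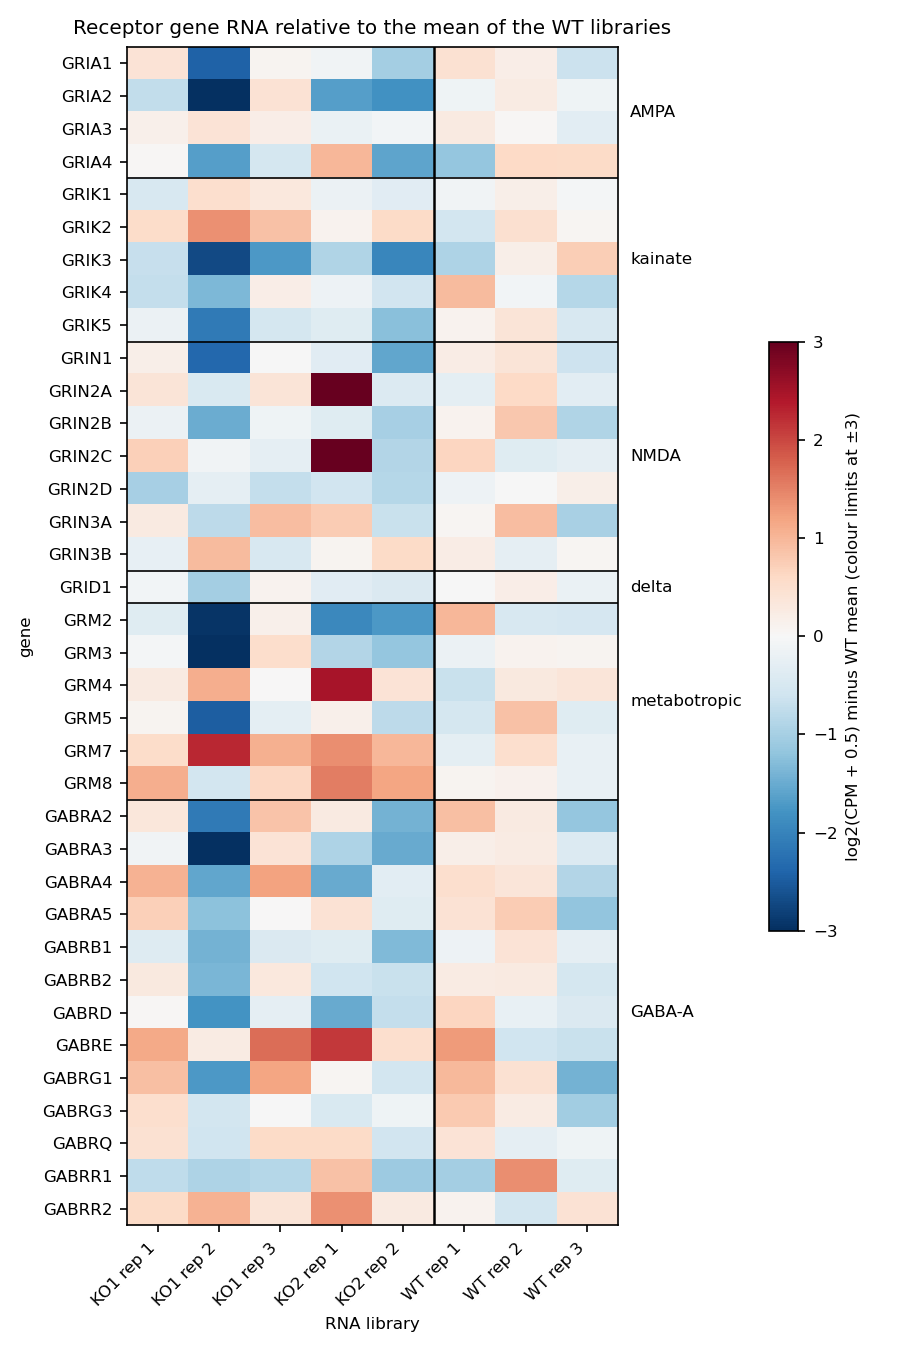
RNA of 36 receptor genes that passed the filter, as log2(CPM + 0.5) minus the mean of the 3 WT libraries, with KO libraries left of the black line and WT libraries right of it, and receptor classes separated by lines. KO1 replicate 2 is the lowest of the 8 libraries for 23 of the 36 genes drawn, while GRM7 is red in it.

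KO1 replicate 2 was the lowest library for 27 of 41 members (65.9%), while it was lowest for 27.2% of all genes tested. KO2 replicate 2, which also had high collagen RNA, was lowest for 2 members (4.88%), near its 5.42% of all genes. KO2 replicate 1 was lowest for 0 members, with 16.5% of all genes. It was highest for 9 members (22.0%), with 16.9% of all genes. Whether the mesenchymal RNA plays a part in these receptor levels was not tested. Summed over all 45 members, receptor RNA was 736, 350 and 860 CPM in KO1, 760 and 409 CPM in KO2, and 804, 913 and 580 CPM in WT. The groups overlapped, with KO1 replicate 2 and KO2 replicate 2 at the low end.

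**Figure D2:**
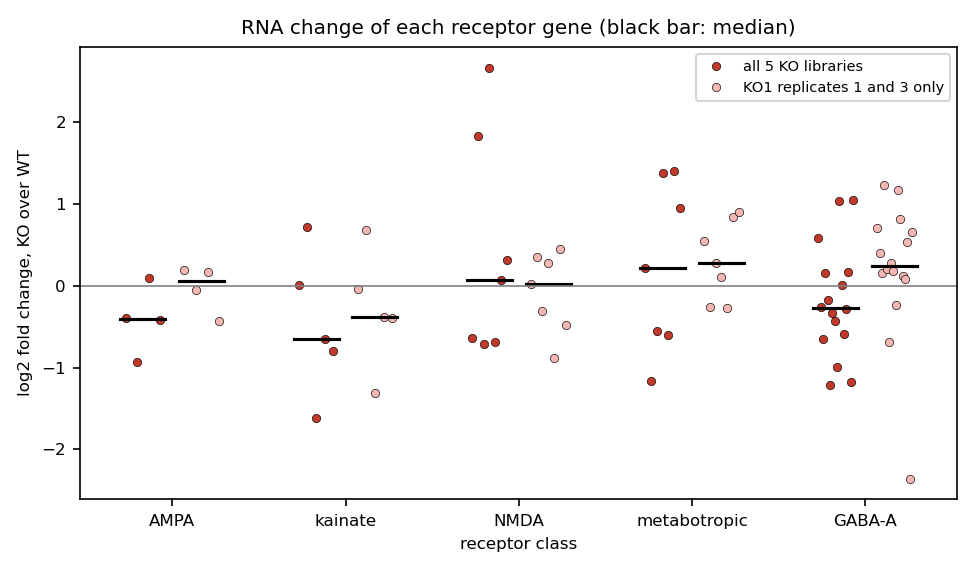
log2 fold change of each receptor gene, KO over WT, for 5 receptor classes, from all 5 KO libraries (dark red) and from KO1 replicates 1 and 3 alone (light red), each against the 3 WT libraries. The GABA-A median is -0.27 with all 5 KO libraries and 0.24 with KO1 replicates 1 and 3.

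With all libraries, no AMPA receptor subunit was called by edgeR or DESeq2 in KO against WT. GRIA2, the subunit that keeps most AMPA receptors impermeable to calcium, stood at 59.5, 11.1 and 134 CPM in KO1 libraries, 31.2 and 28.0 CPM in KO2 libraries, and 90.3, 119 and 91.7 CPM in WT libraries. The KO libraries other than KO1 replicate 3 were below all WT libraries, and that library was above them. Its log2 fold change was -0.93 (edgeR adjusted p = 0.445), and -0.05 without the 3 high-collagen libraries. Without KO1 replicate 3 it was -1.63, and DESeq2 then called GRIA2 as lower in KO (-1.62, adjusted p = 0.0141). That DESeq2 fit called 2870 of 20948 genes and 3 of 40 members. Its KO libraries were the 3 high-collagen libraries and KO1 replicate 1. GRIA1, a subunit whose synaptic insertion accompanies potentiation, had 98.9, 13.5 and 78.4 CPM in KO1, 68.4 and 36.5 CPM in KO2, and 102, 84.4 and 46.8 CPM in WT, so the groups overlapped. Without the 3 high-collagen libraries the GRIA1 log2 fold change was 0.19, instead of -0.40 with all libraries. GRIA4 had 11.1, 3.09 and 7.31 CPM in KO1, 21.8 and 3.27 CPM in KO2, and 4.54, 16.5 and 16.3 CPM in WT, with a wide overlap. GRIA3 ranged from 26.2 to 39.8 CPM in KO libraries and from 24.2 to 36.2 CPM in WT libraries.

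The makeup of the AMPA subunit counts overlapped between genotypes. GRIA2 gave 29.3%, 16.5% and 52.6% of the AMPA subunit counts in KO1, 21.1% and 29.1% in KO2, and 38.7%, 47.5% and 51.2% in WT. GRIA3 gave 59.0% of them in KO1 replicate 2, 13.7% to 29.6% in the other KO libraries and 12.4% to 15.5% in WT libraries. These shares use counts without a correction for transcript length, so they compare libraries and not subunits.

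Kainate receptor genes held 1 of the 3 calls. GRIK3, a kainate subunit found at presynaptic and postsynaptic sites, had 17.7, 4.04 and 8.46 CPM in KO1, 15.2 and 7.09 CPM in KO2, and 15.1, 32.6 and 48.9 CPM in WT. WT replicate 1 lay below the highest KO libraries, while the other WT libraries lay above all KO libraries. GRIK3 averaged 10.5 ± 5.75 CPM in KO and 32.2 ± 16.9 CPM in WT (SD, n = 5 and 3). In the authors' deposited table its log2 fold change was -1.61 with a standard error of 0.54 and an adjusted p of 0.0495, while edgeR gave an adjusted p of 0.243. The edgeR log2 fold change against WT was -1.68 for KO1 and -1.53 for KO2, without a call in either line. DESeq2 no longer called GRIK3 without WT replicate 2, WT replicate 3, KO1 replicate 2, KO1 replicate 3 or KO2 replicate 2, nor without the 3 high-collagen libraries (log2 fold change -1.30, adjusted p = 0.214).

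GRIK2, a widely expressed kainate subunit, had 17.3, 31.1 and 22.0 CPM in KO1, 12.6 and 17.9 CPM in KO2, and 7.86, 16.6 and 12.3 CPM in WT. All KO libraries but KO2 replicate 1 were above all WT libraries. Its log2 fold change was 0.72 (edgeR adjusted p = 0.298), and 0.47 without WT replicate 1. GRIK5, a high-affinity subunit that assembles with other kainate subunits, had 40.3, 10.1 and 31.5 CPM in KO1, 35.3 and 19.0 CPM in KO2, and 49.3, 59.9 and 32.5 CPM in WT, with overlap at WT replicate 3. Its log2 fold change was -0.79 (edgeR adjusted p = 0.329), and -0.40 without the 3 high-collagen libraries. GRIK1 had 10.6, 21.6 and 18.7 CPM in KO1, 13.3 and 11.8 CPM in KO2, and 13.9, 16.9 and 14.4 CPM in WT, a log2 fold change of 0.01. GRIK4 ranged from 2.36 to 7.90 CPM in KO and from 3.54 to 13.4 CPM in WT.

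Among NMDA receptor genes, GRIN2D separated the genotypes. GRIN2D, a subunit of slowly deactivating NMDA receptors that is prominent early in development, had 10.6, 17.8 and 12.9 CPM in KO1, 14.4 and 11.6 CPM in KO2, and 19.3, 21.4 and 24.3 CPM in WT. Every KO library was below every WT library, as it was for 6.16% of all genes tested. The log2 fold change in the authors' deposited table was -0.67 with a standard error of 0.23 and an adjusted p of 0.0479, and edgeR gave an adjusted p of 0.243. Without the 3 high-collagen libraries, GRIN2D was the only member that DESeq2 called (log2 fold change -0.88, adjusted p = 0.00722), while 1.43% of all genes were called in that fit. With single libraries left out, DESeq2 kept the call without KO1 replicate 2 and lost it without any of the other 7. The edgeR log2 fold change was -0.66 for KO1 and -0.74 for KO2.

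GRIN2A and GRIN2C were high in a single library. GRIN2A, the subunit whose share of NMDA receptors grows as neurons mature, had 5.96, 3.09 and 5.90 CPM in KO1, 64.9 and 3.17 CPM in KO2, and 3.53, 6.96 and 3.43 CPM in WT. GRIN2C, best known from cerebellar granule cells, had 2.98, 1.46 and 1.23 CPM in KO1, 48.5 and 0.644 CPM in KO2, and 2.80, 1.13 and 1.23 CPM in WT. In each case KO2 replicate 1 was far above the other 7 libraries, and these did not separate by genotype. DESeq2 called GRIN2C in KO2 against WT (log2 fold change 3.84, adjusted p = 0.0365), 1 of 42 members (2.38%) against 4.24% of all genes. In KO against WT with all libraries, DESeq2 gave log2 fold changes of 1.84 for GRIN2A and 2.67 for GRIN2C, without a p-value. Without KO2 replicate 1, the KO against WT log2 fold change was -0.03 for GRIN2A and -0.11 for GRIN2C.

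GRIN2B, the NMDA subunit typical of young neurons, had 45.9, 18.1 and 47.3 CPM in KO1, 40.0 and 25.7 CPM in KO2, and 55.3, 90.7 and 27.4 CPM in WT. Its groups overlapped at WT replicate 3, and its log2 fold change was -0.71 (edgeR adjusted p = 0.374), with -0.23 without WT replicate 2 and -0.31 without the 3 high-collagen libraries. GRIN2B gave 44.8% to 70.3% of the GRIN2A to GRIN2D counts in the KO libraries other than KO2 replicate 1, where it gave 23.8%, and 48.6% to 75.5% in WT libraries. GRIN1, the obligatory subunit, ranged from 1.46 to 10.9 CPM in KO and from 6.06 to 12.6 CPM in WT.

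**Figure D3:**
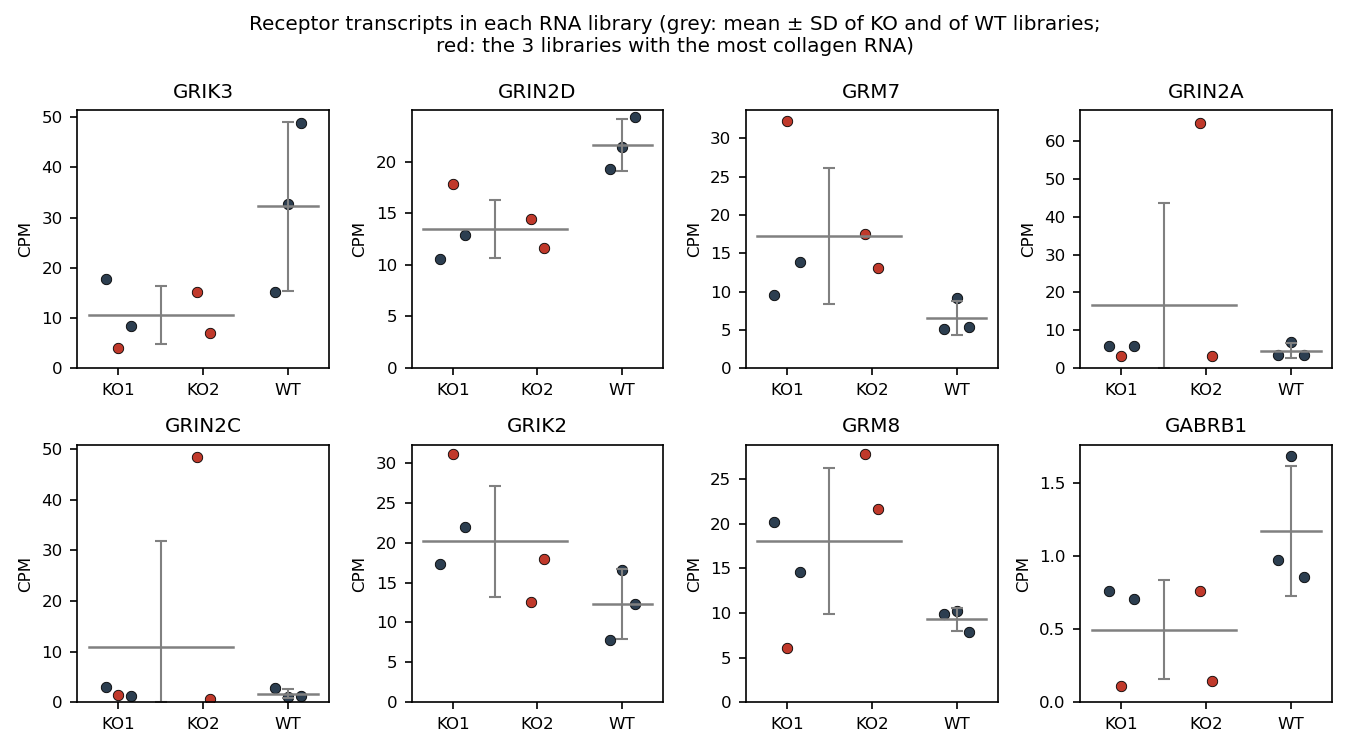
CPM of 8 receptor genes in each RNA library, with KO1 and KO2 left of WT, the mean and SD of the 5 KO and the 3 WT libraries in grey, and the 3 high-collagen libraries in red. GRIN2D lies below all WT libraries in every KO library and GRM7 above them, while GRIN2A and GRIN2C reach 64.9 and 48.5 CPM in KO2 replicate 1 alone.

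The delta receptor gene GRID1 ranged from 8.42 to 19.0 CPM in KO and from 15.3 to 20.4 CPM in WT, a log2 fold change of -0.33.

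Among metabotropic receptors, GRM7, a presynaptic group III receptor, had 9.50, 32.3 and 13.8 CPM in KO1, 17.5 and 13.1 CPM in KO2, and 5.07, 9.12 and 5.36 CPM in WT. Every KO library was above every WT library, as it was for 6.29% of all genes tested, although KO1 replicate 1 and WT replicate 2 lay close together. In the authors' deposited table its log2 fold change was 1.42 with a standard error of 0.45 and an adjusted p of 0.0336, and edgeR gave 0.243. The edgeR log2 fold change was 1.5 for KO1 and 1.22 for KO2, and 0.84 without the 3 high-collagen libraries, where DESeq2 no longer called GRM7 (adjusted p = 0.412). DESeq2 also lost the call without WT replicate 1, WT replicate 3, KO2 replicate 1 or KO2 replicate 2.

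GRM8, another presynaptic group III receptor, had 20.2, 6.12 and 14.6 CPM in KO1, 27.8 and 21.6 CPM in KO2, and 9.85, 10.2 and 7.83 CPM in WT. All KO libraries but KO1 replicate 2 were above all WT libraries. Its log2 fold change was 0.96 (edgeR adjusted p = 0.286), and DESeq2 called it without KO1 replicate 2 (1.18, adjusted p = 0.00219). That DESeq2 fit called 776 of 19184 genes and 3 of 39 members. GRM4, the third of these group III receptors, had 1.47, 2.97 and 1.15 CPM in KO1, 8.60 and 1.69 CPM in KO2, and 0.527, 1.51 and 1.61 CPM in WT, so that KO2 replicate 1 again stood alone. GRM3, a group II receptor, had 17.3, 0.730 and 26.0 CPM in KO1, 9.59 and 7.73 CPM in KO2, and 15.7, 19.3 and 18.9 CPM in WT, with overlap. GRM2, the other group II receptor, ranged from 2.30 to 23.3 CPM in KO and from 14.7 to 42.0 CPM in WT.

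Of the 16 GABA-A receptor genes tested, none was called by edgeR or DESeq2 in KO against WT with all libraries, beside 0% and 5.99% of all genes. None reached an unadjusted p under 0.05 with edgeR, beside 17.9% of all genes. GABRB1, a beta subunit, had 0.758, 0.112 and 0.705 CPM in KO1, 0.761 and 0.149 CPM in KO2, and 0.973, 1.68 and 0.858 CPM in WT. Every KO library was below every WT library, so that with GRIN2D and GRM7 there were 3 of 41 members without overlap (7.32%), and 12.5% of all genes tested did not overlap in either direction. Its log2 fold change was -1.21 (edgeR adjusted p = 0.321), and -0.69 without the 3 high-collagen libraries. GABRR2, a rho subunit known from retinal receptors, had 1.41, 2.13 and 1.17 CPM in KO1, 2.82 and 1.04 CPM in KO2, and 0.892, 0.377 and 1.23 CPM in WT, with overlap at WT replicate 3 and a log2 fold change of 1.05 (edgeR adjusted p = 0.298), which was 0.69 without WT replicate 2 and 0.65 without the 3 high-collagen libraries. GABRE, the epsilon subunit, had 20.3, 10.7 and 29.7 CPM in KO1, 40.6 and 12.8 CPM in KO2, and 22.3, 5.79 and 5.42 CPM in WT, so that WT replicate 1 lay among the KO libraries. Its log2 fold change was 1.03 (edgeR adjusted p = 0.380), and without WT replicate 1 it was 2.02, where DESeq2 called GABRE as higher in KO (2.03, adjusted p = 0.0164). That DESeq2 fit called 590 of 19175 genes and 2 of 39 members.

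GABRQ and GABRA3 overlapped between genotypes. GABRQ, the theta subunit, had 7.58, 3.37 and 8.25 CPM in KO1, 8.20 and 3.42 CPM in KO2, and 7.30, 4.35 and 4.83 CPM in WT. GABRA3 ranged from 3.93 to 48.3 CPM in KO and from 27.1 to 42.7 CPM in WT. The 3 untested subunits GABRA6, GABRP and GABRR3 reached at most 0.303 CPM in KO and 0.648 CPM in WT.

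The KO lines were also set against WT separately and against each other. With edgeR, no member passed in KO1 against WT, KO2 against WT or KO2 against KO1, where DESeq2 called 0, 1 and 0 members (0.846%, 4.24% and 0.0401% of all genes) and 4, 5 and 2 members had an edgeR unadjusted p under 0.05 (9.76%, 12.2% and 4.88%, with 8.06%, 18.3% and 2.24% of all genes). The 3-group fit depended on KO1 replicate 2. Without it, edgeR called 8 members in KO2 against WT (19.5%, with 16.7% of all genes called). Among them, GABRA3, GRIA2, GRIN2D, GRM2 and GRM3 were lower and GRM7 and GRM8 higher in KO2. GRIA2 had a log2 fold change of -1.76 (adjusted p = 0.0200) and GRM8 of 1.41 (adjusted p = 0.0101) in that edgeR fit. KO2 against KO1 then gave 1 member (2.44%, with 4.95% of all genes called), GRM3, lower in KO2 (-1.31, edgeR adjusted p = 0.0393). Both KO2 libraries in these comparisons were high-collagen libraries, and the remaining KO1 libraries were not.

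At the chromatin level, receptor genes were often marked by H3K27me3. A peak lay within 2 kb of a start site for 32 of 45 members (71.1%) in the KO list and for 26 (57.8%) in the WT list. Among all 36756 genes with a position, the shares were 10.0% in the KO list, 9.65% in the WT list and 8.53% in both, and among 18806 protein-coding genes 15.9% and 15.4%. For 13 members RefSeq gave no start site here, and either gene end was used, among them GRIN1, GRIN2C, GRID1 and GRIK1. Among the 32 members with a start site, 23 (71.9%) had a peak in the KO list and 19 (59.4%) in the WT list, with 13.8% and 13.4% of all such genes. The lists have no replicates, so these shares carry no error.

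**Figure D4:**
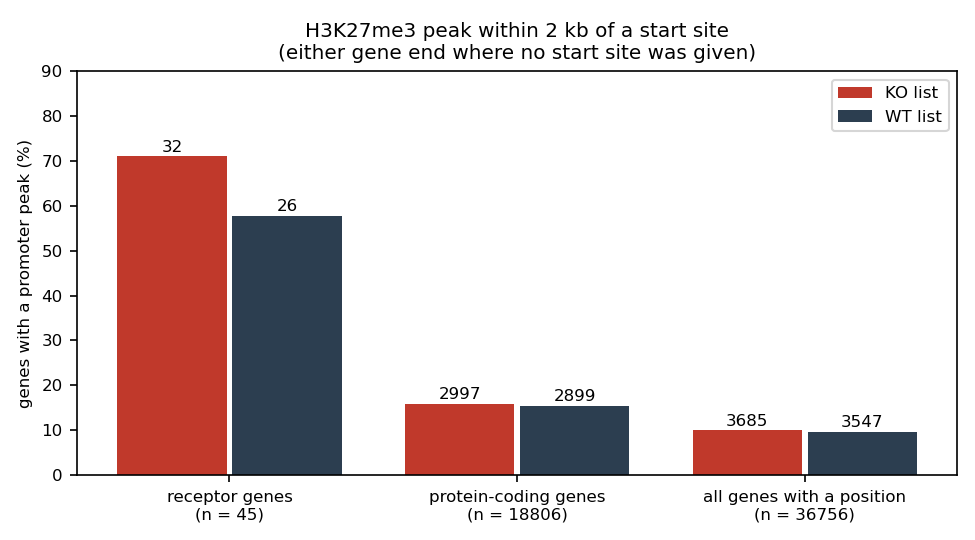
Share of genes with an H3K27me3 promoter peak in the KO list (left bar) and the WT list (right bar), with the number of genes above each bar. The receptor genes stand at 71.1% and 57.8%, and protein-coding genes at 15.9% and 15.4%.

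By receptor class, the mark was found as follows. Glutamate receptor genes had a promoter peak in 23 of 26 cases in the KO list and 19 in the WT list, and GABA-A receptor genes in 9 of 19 in the KO list and 7 in the WT list. All 5 kainate, 7 NMDA and 8 metabotropic receptor genes had a peak in the KO list, and 4, 6 and 7 of them in the WT list. Of the AMPA subunits, GRIA2 had a peak in both lists, GRIA4 in the KO list only, and GRIA1 and GRIA3 in neither. GRID1 had a peak in both lists. The GABA-A genes without a peak included GABRA3, GABRA6, GABRB1, GABRE, GABRG1, GABRP and the rho genes GABRR1, GABRR2 and GABRR3.

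The widest marked domain was at GRIN1, where a KO peak spanned chr9:137155349-137171280 (15932 bp, 17.8-fold over the control at its summit). The longest WT peak there spanned chr9:137160623-137171009 (10387 bp, 24.3-fold). Smaller WT peaks lay over the rest of the KO stretch, among them chr9:137156183-137159600 (3418 bp), so the WT list held that domain in pieces. Peaks covered 66.8% of the GRIN1 gene in the KO list and 57.1% in the WT list. At GRIK3 a KO peak spanned chr1:37029297-37037902 (8606 bp, 15-fold) and a WT peak of 6167 bp (16.6-fold) lay at the same promoter, which contains the GRIK3 sequence printed above. Another WT peak, chr1:37029167-37030473 (1307 bp), lay over the other end of the KO peak. GRIN2C had KO promoter peaks up to 15.4-fold and WT promoter peaks up to 13.1-fold, and peaks covered 42.4% of the gene in the KO list and 47.9% in the WT list. GRM4 was marked along 10940 bp in the KO list and 10718 bp in the WT list. Fold values are the authors' own.

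At GRM7 the KO list held a peak of 856 bp upstream and a peak of 3048 bp that began inside the gene, at chr3:6861642-6864689, with summits up to 5.95-fold. The WT list held a peak of 2075 bp at chr3:6861599-6863673 (8.52-fold) and none over the upstream stretch. At GRIN2D the promoter peak was chr19:48394474-48395989 in the KO list (1516 bp, 6.11-fold), and the WT list held peaks of 544 and 777 bp over the same stretch (up to 6.88-fold). GABRA4 and GABRB1 lie head to head on chromosome 4. A KO peak at chr4:46992306-46994899 (2594 bp) and a WT peak at chr4:46992126-46994351 (2226 bp) covered the GABRA4 start site and the RefSeq start of the GABRB1 gene at 46993647, but GABRB1 counted as unmarked because its RefSeq promoter entry lies further into the gene.

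A promoter peak in the KO list only was found for 6 members (13.3%), GABRQ, GRIA4, GRIK1, GRIN2B and GRM3 among them, and in the WT list only for 0. Among all genes with a position, 1.49% had a peak in the KO list only and 1.12% in the WT list only. The KO list was called from 37594827 H3K27me3 tags and 45669158 control tags, and the WT list from 22448528 H3K27me3 tags and 23029775 control tags, so the deeper KO list and the genotype cannot be told apart. The 6 promoters carried weak peaks. Their summits were 3.54- to 5.43-fold over the control, with a median of 4.15, beside a median of 4.30 for all 549 promoters of this kind. Lengths were 341 bp at GRIK1, 440 bp at GRIN2B, 470 bp at GRM3, 719 bp at GABRQ and 1225 bp over 2 peaks at GRIA4. The 6 genes had a median RNA log2 fold change of -0.48, or 0.04 without the 3 high-collagen libraries, and none was called by edgeR or DESeq2. All 388 tested genes with a peak in the KO list only had a median of -0.26, with 7.22% called by DESeq2.

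**Figure D5:**
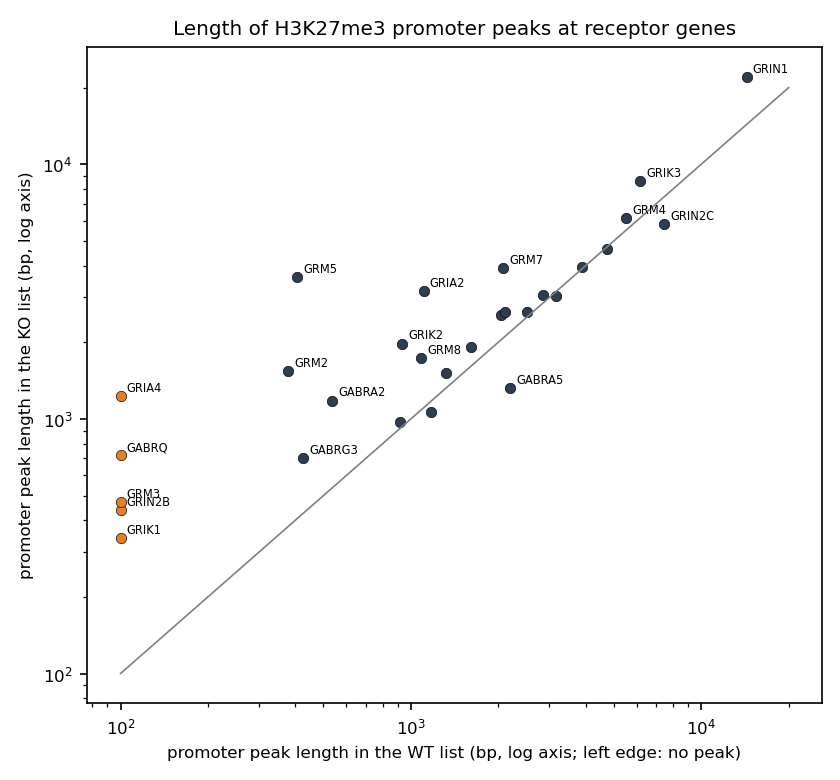
Summed length of the H3K27me3 promoter peaks of each receptor gene in the KO list (vertical) and the WT list (horizontal), on log axes with equality as a line; 5 genes with a peak in the KO list only stand at the left edge in orange. Of the 24 genes drawn that are marked in both lists, 19 lie above the line, with GRM5 at 3613 bp in the KO list and 405 bp in the WT list.

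Of the 26 members marked in both lists, 21 (80.8%) had more promoter peak length in the KO list, beside 63.8% of all 3136 genes marked in both. GRM5, a postsynaptic group I receptor, had 3613 bp in 4 KO peaks and 405 bp in 1 WT peak. GRIA2 had 3172 bp in the KO list and 1106 bp in the WT list, and GRM2 1543 bp and 378 bp. GABRA5 went the other way, with 1318 bp in the KO list and 2198 bp in the WT list. Peak height was higher in the KO list for 14 of the 26 members (53.8%), beside 33.5% of all genes marked in both. The median promoter peak length of the 26 members was 2639 bp in the KO list and 2057 bp in the WT list, with median fold values of 7.15 and 6.32. The difference in depth named above applies to these lengths and heights too. Lengths are those of whole peaks that touched the window, at either gene end where no start site was given. Pieces of a split domain that missed the window were left out, as for some WT peaks at GRIN1 and GRIK3.

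The RNA changes were set beside the mark. The 25 tested members marked in both lists had a median log2 fold change of -0.26, and DESeq2 called 3 of them, beside 16.9% of all 2126 tested genes marked in both lists, whose median was 0.28. The 10 tested members with no promoter peak had a median of -0.20 and no call, beside 5.07% called and a median of -0.01 among all unmarked genes. Without the 3 high-collagen libraries the medians were 0.10 for members marked in both lists and 0.17 for unmarked members. GRIN2A and GRIN2C, each high in 1 KO2 library, were marked in both lists.

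The base composition of the promoters was set beside the mark. In the 300 bases around the most upstream start site, the 19 members marked in both lists held a median of 25 CG dinucleotides, and 12 of them (63.2%) held at least 15. The 9 unmarked members held a median of 5, and 1 of them (11.1%), GABRE, held at least 15. Among all 17913 genes with a promoter entry the median was 20, with 60.4% at 15 or more. The median was 26 for all genes marked in both lists, with 78.0% at 15 or more, above the 63.2% of the members so marked. It was 19 for all unmarked genes, with 57.6% at 15 or more. The CG dinucleotide reads the same on both strands, so the count holds for each.

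H3K36me3 peaks were rare at the receptor genes. A gene body peak was found for 0 of 45 members in the KO list and for 2 (4.44%) in the WT list, GRIK5 with 708 bp and GRIN2B with 646 bp covered. Among the genes tested for RNA that have a position, 23.7% had such a peak in the KO list and 43.6% in the WT list, and among all genes with a position 10.5% and 19.9%. The lists differ in size, with 8937 KO peaks and 30144 WT peaks.

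Other genes of the same synapses were described by lists. Of 16 tested auxiliary subunits of AMPA and kainate receptors, 0 were called by edgeR or DESeq2, and the lowest p belonged to CACNG7, a transmembrane AMPA receptor regulatory protein, with 85.5 ± 19.1 CPM in KO and 128 ± 14.0 CPM in WT (SD, n = 5 and 3; log2 fold change -0.58, edgeR adjusted p = 0.244). Of 27 tested scaffold and trafficking genes, DESeq2 called GRIPAP1 alone, a GRIP-associated endosomal protein on the AMPA receptor recycling route. It had 85.7, 76.5 and 96.2 CPM in KO1, 90.5 and 85.7 CPM in KO2, and 148, 164 and 166 CPM in WT, with no overlap (log2 fold change -0.86, DESeq2 adjusted p = 1.88e-10, edgeR adjusted p = 0.222). Of 16 GABA-A receptor partners none was called, and the lowest p belonged to CLPTM1, which retains GABA-A receptors inside the cell, with 125 ± 25.8 CPM in KO and 85.4 ± 12.4 CPM in WT (log2 fold change 0.55, edgeR adjusted p = 0.246).

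Of 8 tested GABA-B and glycine receptor genes, DESeq2 called KCTD12, an auxiliary GABA-B subunit that other tissues also express, as higher in KO. It had 44.8, 545 and 40.9 CPM in KO1, 244 and 435 CPM in KO2, and 35.6, 28.3 and 49.6 CPM in WT, so that its high values fell in the 3 high-collagen libraries. Of 17 tested genes for transmitter synthesis, packaging and uptake, DESeq2 called 2 as lower in KO. SLC32A1, the vesicular transporter that loads GABA, had 2.53, 1.23 and 4.67 CPM in KO1, 2.78 and 2.03 CPM in KO2, and 1.54, 18.3 and 15.3 CPM in WT, so that WT replicate 1 lay with the KO libraries (DESeq2 adjusted p = 0.0420). The 9 GABAergic neuron markers, all detected, summed to 32 to 70.0 CPM in KO libraries and 21.4 to 199 CPM in WT libraries. The median log2 fold changes of the 5 lists were -0.23, -0.41, -0.22, 0.01 and -0.57 in the order given, beside -0.01 for all genes.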

How the data were processed

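RNA-seq and ChIP-seq of H9-derived neurons were used. Per the submitters' processing notes, the authors quantified RNA with Salmon 1.1.0 on GRCh38 and tested it with DESeq2 1.26.0, and Bowtie2 2.4.1 and MACS2 2.2.7.1 served the ChIP-seq. The deposited RNA values are estimated counts for each symbol, which are not normalized and were rounded here. The authors' deposited comparison table gives log2 fold changes, standard errors, a score (the Wald statistic), p-values and adjusted p-values, with 1 where none was computed. Per the file headers, peaks were called with MACS2 at q 0.01 from 1 treatment and 1 control alignment, with 1 tag kept per position. Each deposited peak has the authors' summit pileup signal, their fold enrichment ratio against the control and their -log10 q-value. The labels tie the KO1 and the KO2 sample to the same KO list.

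Here, edgeR 4.0.16 (R 4.3.3) was run on all genes: filterByExpr, TMM scaling, a quasi-likelihood test and Benjamini-Hochberg adjustment, with KO lines pooled or in 3 groups. CPM values are TMM-scaled. DESeq2 1.42.0 was the comparison tool, and scaling, filter, robust fit, replicate block and left-out libraries were varied. The high-collagen libraries are a grouping made from the data. No pair of replicates agreed within counting noise, with a chi-square per degree of freedom of 28.7 to 500. On counts simulated for KO against WT with 18614 genes, edgeR found 13.0% of 2-fold, 64.3% of 4-fold and 97.0% of 8-fold changes, and DESeq2 19.5%, 73.2% and 98.5%. In that simulation edgeR made 12 false calls beside 111 true ones, and DESeq2 33 false calls beside 122 true ones. The simulated spread of a gene followed its expression level alone, and genes varied independently of each other. The high-collagen pattern was not simulated, so these rates do not measure detection in the real libraries. A promoter peak overlapped 2 kb on either side of a RefSeq start site (GRCh38.p14) by at least 1 bp. Genes were named in full if called by a tool, if among the 3 lowest edgeR p in their class, or if marked in 1 list only; GRIN2A, GABRA3 and GRM2 were added after their values were seen. A few members enter the counts but their own values are not reported here. The members and lists were chosen with earlier results of these data known.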

Additional observations from a re-analysis of the deposited data

Results flagged for a closer look

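Among the 5 KO libraries, 3 of 22 receptor genes had a value far from the rest in KO2 replicate 1, by Dixon's test at the 95% level, which flags about 1 in 20 groups by chance. The 22 genes were those named in full, partly chosen by their values, and GRIN2A was added after its values were seen. That rate is therefore no measure of chance for them. Dixon's test was not run over all genes, so no background share stands beside the 3. KO2 replicate 1 was the highest library for 16.9% of all genes tested and 22.0% of the members tested. GRIN2A reached 64.9 CPM there, while the other KO libraries held 3.09 to 5.96 CPM. GRIN2C reached 48.5 CPM, beside 0.644 to 2.98 CPM. GRM4 reached 8.60 CPM, beside 1.15 to 2.97 CPM. All 3 values are from the same library, which is also a high-collagen library; the part of that in these values was not tested. The 2 other high-collagen libraries held 3.09 and 3.17 CPM of GRIN2A.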

How the results depend on the processing

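edgeR called 0 genes in KO against WT under all 15 edgeR settings run, alternatives in scaling, filter, robust fit, replicate block and left-out libraries included. DESeq2 called 1243 genes and 3 members, 773 genes and 2 members (GRIK3 and GRM7) with the replicate block, and 262 genes and 1 member (GRIN2D) without the 3 high-collagen libraries. With 1 library left out, DESeq2 called 590, 452 and 539 genes without WT replicates 1, 2 and 3, 1762, 776 and 2870 genes without KO1 replicates 1, 2 and 3, and 749 and 590 genes without KO2 replicates 1 and 2, with 0 to 3 members. The cause was not tested. Correlations of same-numbered libraries, taken on deviations from the group means, ran from -0.321 to 0.267. Such deviations cancel within a group, and those of the KO2 libraries mirror each other. This check therefore cannot decide whether replicate numbers pair the libraries. In KO2 against WT, DESeq2 called 1 member, and edgeR with 1 library left out 0 to 8; in KO2 against KO1, 0 to 1.

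Some fold changes turned in direction, those of GRIN2A and GRIN2C without KO2 replicate 1 among them. Without the 3 high-collagen libraries edgeR and DESeq2 gave 0.16 and 0.15 for GABRA3, 0.19 and 0.18 for GRIA1, 0.27 and 0.27 for GRM3, -0.04 and -0.04 for GRIK1, and edgeR 0.00 for GRID1. With 1 library left out, edgeR gave GRIK1 values of -0.15 to 0.12, GRIN2A of -0.03 to 2.25 and GRIN2C of -0.11 to 3.20. DESeq2 gave GRIK1 -0.04, -0.01, -0.14 and -0.06 without WT replicate 1, WT replicate 3, KO1 replicate 2 and KO1 replicate 3, and without KO2 replicate 1 gave -0.03 for GRIN2A and -0.12 for GRIN2C. Peak counts of members stayed within 1.5 times under other windows, overlaps and thresholds, except that 1 member was marked in the WT list only when 500 bp of overlap were required, and the 2 members with H3K36me3 in the WT list became 0 at 10% of the span and 1 at a -log10 q of 5. The 45 members have only 8 RNA libraries behind them, and genes under 2 CPM rest on few counts.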

Other observations

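GABA-A receptor genes lie in clusters on several chromosomes. On chromosome 4, GABRA2 and GABRA4 had H3K27me3 promoter peaks in the KO and the WT list, and GABRG1 had none. On chromosome 5, GABRB2 had peaks in both lists and GABRA6 in neither. On chromosome 15, GABRA5 and GABRG3 had peaks in both lists. On chromosome X, GABRQ had a peak in the KO list only, and GABRA3 and GABRE had none. The rho genes GABRR1 and GABRR2 on chromosome 6 had none.

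SHISA9, an AMPA receptor auxiliary subunit, was also highest in KO2 replicate 1, with 57.7 CPM there, 4.66 to 18.1 CPM in the other KO libraries and 4.83 to 9.26 CPM in WT libraries. SHISA9 was picked out after its values were seen.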
